A study of Mus musculus with 12 samples.

Results

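The step from late pregnancy into milk production was compared between the luminal and the basal cells of the mouse mammary gland by asking, for each gene, how far the change at that step differed between the cell types. The quantity reported is the interaction, (luminal lactating minus luminal pregnant) minus (basal lactating minus basal pregnant), on the log2 scale. A positive interaction means that a gene moved more upwards, or less downwards, in luminal than in basal cells. The comparison used 8 of the 12 RNA-seq libraries of the series, with 2 libraries in each of the groups: luminal cells at day 2 of lactation, luminal cells at day 18.5 of pregnancy, basal cells at day 2 of lactation and basal cells at day 18.5 of pregnancy. The other 4 libraries, from virgin glands, were not part of this contrast. They entered the choice of genes tested, the scaling between libraries and the estimate of the spread between replicates. All mice were untreated wild-type FVB/N females, and the cells were sorted as a luminal and a basal population straight from the gland. The design gives 2 mice per stage, so the p-values measure the spread between these mice and the preparation of their libraries, and nothing says how far it covers other litters or sorts. In sorted bulk samples of this kind, fewer expressing cells and less RNA per cell cannot be told apart.

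Luminal cells line the alveoli and ducts, and in lactation they make and secrete the protein, fat and sugar of milk. Basal cells, most of them myoepithelial, lie around the luminal layer on the basement membrane and contract when oxytocin reaches them, which ejects the milk. Around birth progesterone falls while prolactin and glucocorticoid act on the luminal cells, the junctions between them close, and secretion begins.

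The deposited count table gave 20015386 to 24723827 reads per library. The milk protein genes took 49.4% and 48.5% of all reads in the lactating luminal libraries, so that the scaling between libraries (TMM, a trimmed mean that sets the bulk of genes level) mattered: the scaling factors were 0.529 and 0.535 there, against 0.923 to 1.13 in the other lactating and pregnant libraries. Luminal libraries were read in lane 1 and basal libraries in lane 2, so cell type and lane cannot be told apart, while each stage change lies within a lane. Levels are given in CPM, the reads of a gene relative to the TMM-scaled library total. The summed level of 9 basal markers was 93.9 and 103 CPM in lactating luminal libraries and 337 and 408 CPM in pregnant luminal libraries. In basal libraries it was 48950 and 41710 CPM in lactation and 32660 and 40910 CPM in pregnancy, which matches the sort labels. The summed level of 8 luminal markers was 11670 and 14390 CPM in pregnant luminal against 1643 and 1671 CPM in pregnant basal libraries. In lactation it was 5845 and 5097 CPM in luminal against 2261 and 1847 CPM in basal libraries, so these markers stood less far apart there.

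Of 15969 genes tested, 5787 (36.2%) had an interaction at an adjusted p under 0.05 (edgeR quasi-likelihood test, Benjamini-Hochberg adjustment over all genes), 2918 of them higher (18.3%) and 2869 lower (18.0%). The median interaction over all genes tested was -0.01. A size of at least 1 on the log2 scale was reached by 1812 of the higher and 1481 of the lower genes. Sorted by what each cell type did, the higher genes held 1489 whose luminal change alone was called, 506 whose basal change alone was called, 552 in opposite directions, 272 in the same direction in both and 99 with neither change called. The lower genes divided in the same way into 1464, 504, 540, 235 and 126. The luminal cells moved further than the basal cells: the standard deviation of the log2 change over genes was 1.33 in luminal and 0.86 in basal cells, with 3781 genes higher (23.7%) and 3935 lower (24.6%) in lactating than pregnant luminal cells, against 2508 higher (15.7%) and 2779 lower (17.4%) in basal cells. The 5287 basal calls came to 2735 without basal pregnant replicate 1 and 2806 without basal lactating replicate 2. Over genes, which are not independent of each other, the luminal and basal changes had a Pearson correlation of 0.16 and a Spearman correlation of 0.16.

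**Figure D1:**
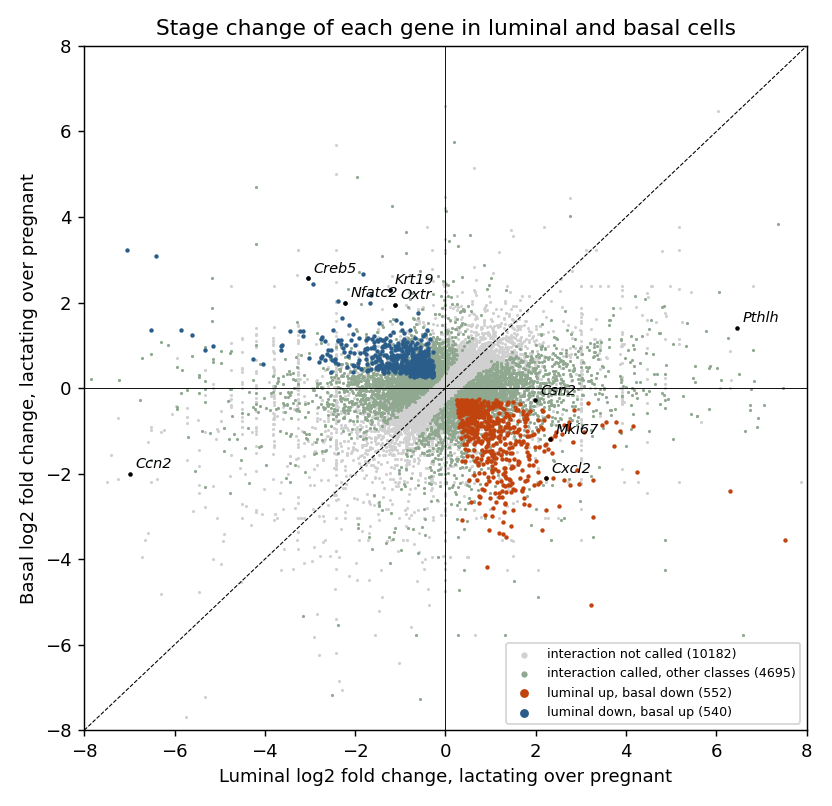
Each point is 1 gene of the 15969 tested, with its log2 fold change from lactating over pregnant luminal cells on the x axis and from lactating over pregnant basal cells on the y axis; the dashed line marks equal change, and 13 genes lie outside the range of 8. The 552 genes that rose in luminal and fell in basal cells fill the lower right, and the 540 with the reverse pattern the upper left.

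The 552 genes up in luminal and down in basal cells were 3.46% of the genes tested, and the 540 down in luminal and up in basal cells 3.38%. Each needed 3 calls, and these counts, like the basal calls, depended on single libraries: the first fell to 299 without basal lactating replicate 2 and to 323 without basal pregnant replicate 1, and the second to 256 without basal pregnant replicate 1, 290 and 327 without basal lactating replicates 2 and 1, and 336 and 348 without luminal lactating replicates 2 and 1. In 160 genes of the first and 53 of the second pattern both changes were at least 2-fold. Scaling by library size alone, which leaves the milk reads in the total, moved the median interaction of all genes by -0.81 and the median luminal change by -0.85. The patterns then held 137 and 1168 genes, and 11.3% of the called genes were higher, against 50.4% with TMM scaling. Directions below are relative to the bulk of genes.

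List counts below are to be set beside the shares over all genes tested, 18.3% with a higher and 18.0% with a lower interaction. Genes of cell division made the clearest opposite pattern. Of 30 cell cycle genes tested, 27 had a higher interaction and none a lower one, with a median of 2.83. In luminal cells 23 rose and none fell (median change 1.05), and in basal cells 27 fell and none rose (median change -1.72). With scaling by library size 25 interactions were higher and 27 basal genes fell, while in luminal cells only 7 rose and 3 fell. Mki67, the gene of the proliferation antigen Ki-67 (chromosome 7, 135689784 to 135716450, GRCm38), had 358 and 318 CPM in lactating luminal libraries, against 80.0 and 55.6 CPM in pregnant luminal libraries. In basal cells it had 22.5 and 14.9 CPM in lactation, against 46.8 and 38.9 CPM in pregnancy. The lactating libraries were thus the highest among luminal and the lowest among basal libraries, with no overlap, and the interaction was 3.52 ± 0.27 (SE; adjusted p = 2.9e-06, edgeR). Top2a, the DNA topoisomerase of dividing cells, had 104 and 74.4 CPM in lactating against 40.6 and 25.8 CPM in pregnant luminal libraries. Its basal levels were 22.8 and 16.1 CPM in lactation against 54.4 and 56.4 CPM in pregnancy. The stage pairs again did not overlap in either cell type, and the interaction was 2.94 ± 0.31. Rrm2, a subunit of the ribonucleotide reductase that makes DNA building blocks, had 95.5 and 76.6 CPM in lactating against 28.8 and 18.6 CPM in pregnant luminal libraries, and 13.5 and 10.6 CPM in lactating against 44.4 and 39.8 CPM in pregnant basal libraries. Its interaction of 3.66 ± 0.27 was close to that of Mki67.

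Other members behaved alike in sign and differed in size. Bub1, a kinase of the spindle checkpoint, and Ccnb1, the mitotic cyclin B1, had interactions of 4.35 and 4.22, and Kntc1, a kinetochore protein outside the list, had 3.86. Tcf19, a factor described in the passage from G1 to S phase, had 3.42. The replication licensing genes changed less in luminal cells: Mcm3, Mcm5 and Mcm6 fell in basal cells by 2.02, 2.30 and 1.97 on the log2 scale, while their luminal changes of 0.38, 0.53 and 0.62 did not pass the test. Pcna, the sliding clamp of DNA polymerase, had an interaction of 0.61 with neither change called. In all, 21 of the 30 genes were called in opposite directions. That count was 14 without luminal lactating replicate 1, 27 without luminal pregnant replicate 1 and 7 with scaling by library size; the number called higher stayed between 25 and 30 in every refit.

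The promoters of Mki67 and Top2a are shown because those genes carry the opposite pattern, beside the promoter of the milk gene Csn2, which rose in luminal cells without a called basal change. Each is a window of 250 bases before to 50 after the annotated start, from RefSeq on GRCm38.p6, written 5′ to 3′ along the gene. Capitals in the Mki67 and Top2a windows mark the CHR letters TTTGAA and the CCAAT letters CCAAT, each in either orientation, which were chosen after the lists' values were seen. Capitals in the Csn2 window mark TTCNNNGAA, the letters of the GAS element that STAT factors bind.
Mki67 (chr7:135716330-135716629, minus strand): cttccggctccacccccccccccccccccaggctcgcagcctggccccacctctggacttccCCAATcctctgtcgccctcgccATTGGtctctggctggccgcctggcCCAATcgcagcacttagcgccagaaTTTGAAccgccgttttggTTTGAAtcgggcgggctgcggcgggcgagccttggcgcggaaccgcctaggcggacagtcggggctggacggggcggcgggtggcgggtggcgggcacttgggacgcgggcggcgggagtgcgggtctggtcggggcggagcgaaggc
Top2a (chr11:99024140-99024439, minus strand): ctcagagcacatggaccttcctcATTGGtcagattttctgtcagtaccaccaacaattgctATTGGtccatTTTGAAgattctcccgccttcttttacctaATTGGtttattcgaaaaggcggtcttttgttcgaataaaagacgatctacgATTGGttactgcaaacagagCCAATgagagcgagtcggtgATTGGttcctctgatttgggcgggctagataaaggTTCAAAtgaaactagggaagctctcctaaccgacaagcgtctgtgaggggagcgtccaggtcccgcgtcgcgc
Csn2 (chr5:87699376-87699675, minus strand): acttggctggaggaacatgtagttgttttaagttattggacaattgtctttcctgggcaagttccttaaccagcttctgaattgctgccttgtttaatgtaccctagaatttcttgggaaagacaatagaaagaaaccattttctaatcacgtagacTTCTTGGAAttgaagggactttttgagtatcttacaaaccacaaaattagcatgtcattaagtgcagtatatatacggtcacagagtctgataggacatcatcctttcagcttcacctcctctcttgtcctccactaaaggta
The Mki67 window held 2 CHR matches and 3 CCAAT matches, the Top2a window 2 and 6, and the Csn2 window 1 GAS match. Of the 30 cell cycle genes, 24 had a window in the RefSeq table: 10 of these (41.7%) held a CHR match and 20 (83.3%) a CCAAT match, against 20.2% and 41.1% of all 27025 genes in the table. The CCAAT letters were also in 6 of the 11 milk protein windows and in 16 of the 17 windows at hand for cholesterol synthesis. Of the 13 milk protein genes, 11 had a window, and 4 of those (36.4%) held a GAS match, against 9.55% of all genes in the table. A match is a description of the letters and not a bound site. For the interaction calls as a whole, motif shares were not compared, because only 74.8% of the genes tested had a window.

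Acute phase and neutrophil chemokine genes shared this opposite pattern in part. Of 12 tested, 9 had a higher interaction and none a lower one (median 3.13), 9 rose in luminal cells and 7 fell in basal cells, and 5 did both. Cxcl2, a chemokine that draws neutrophils (chromosome 5, 90903899 to 90905938), had 633 and 713 CPM in lactating luminal libraries against 93.2 and 194 CPM in pregnant ones. In basal libraries it had 10.7 and 8.69 CPM in lactation against 43.7 and 39.7 CPM in pregnancy. Lactating and pregnant libraries were separate in both cell types and in opposite order, with an interaction of 4.33 ± 0.44 (adjusted p = 1.7e-05, edgeR). Lbp, which carries bacterial lipopolysaccharide to its receptor, had 687 and 781 CPM in lactating against 147 and 205 CPM in pregnant luminal libraries. It had 6.37 and 6.80 CPM in lactating against 14.1 and 20.3 CPM in pregnant basal libraries. Its interaction was 3.45 ± 0.34. With the luminal share subtracted from the basal libraries, the Lbp interaction was 4.56 and its basal change -2.49, so its size depends on luminal reads there. C4b, a complement component, rose to 24.8 and 23.9 CPM in lactating luminal libraries, against 3.14 and 11.3 CPM in pregnant ones, and fell to 21.4 and 18.1 CPM in lactating basal libraries, against 72.9 and 106 CPM in pregnant ones. Lcn2, an iron-trapping defence protein, had a luminal change of 0.71 and a basal change of -1.79, both called. Summed leukocyte markers were 19.95 and 17.6 CPM in lactating against 42.3 and 45.7 CPM in pregnant basal libraries, and 640 and 572 CPM in lactating against 443 and 603 CPM in pregnant luminal libraries. Of the 12 leukocyte markers 9 were tested, with 2 interactions higher and 1 lower; up to 4 of the 12 were at 0 in a lactating basal library. The part of leukocytes in these changes was not tested. The count of opposite chemokine genes was 3 without basal pregnant replicate 1 and with scaling by library size.

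**Figure D2:**
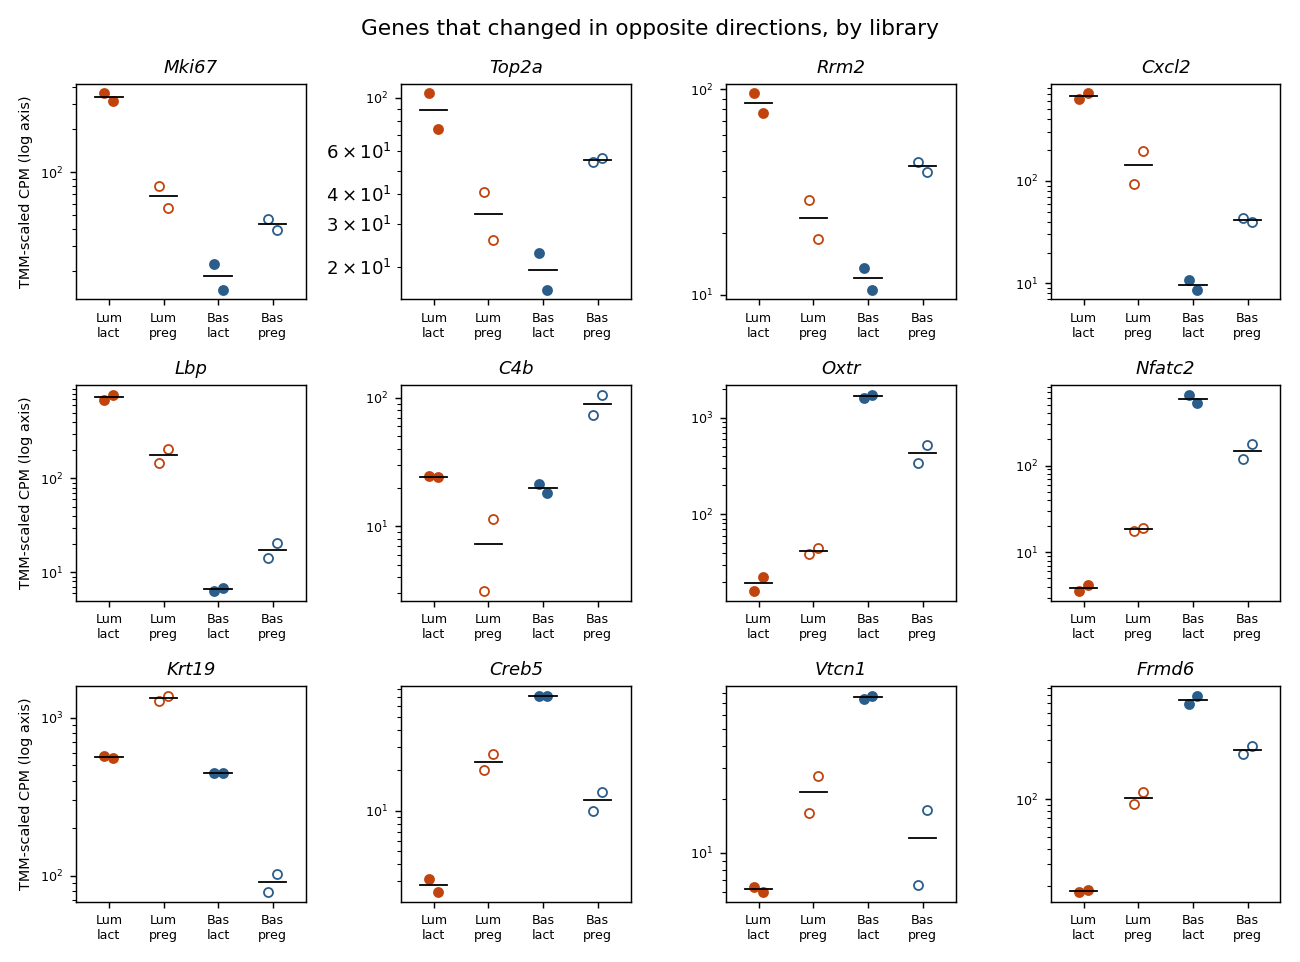
Level of 12 genes called in opposite directions in each library, in TMM-scaled CPM on log axes, with filled points for lactation, open points for pregnancy and a line at the mean of the 2 libraries. Mki67, Top2a, Rrm2, Cxcl2, Lbp and C4b are higher in lactating than pregnant luminal (Lum) libraries and lower in lactating than pregnant basal (Bas) libraries; Oxtr, Nfatc2, Krt19, Creb5, Vtcn1 and Frmd6 show the reverse.

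The reverse pattern, down in luminal and up in basal cells, held receptors, transcription factors and structural genes. Oxtr, the oxytocin receptor through which basal cells are made to contract (chromosome 6, 112473683 to 112491035), had 16.1 and 22.4 CPM in lactating against 38.6 and 44.5 CPM in pregnant luminal libraries. In basal libraries it had 1614 and 1730 CPM in lactation against 340 and 523 CPM in pregnancy, a 3.88-fold rise. The ranges did not overlap in either cell type, and the interaction was -3.06 ± 0.34 (adjusted p = 3e-05, edgeR). Nfatc2, a calcium-regulated transcription factor, had 3.59 and 4.24 CPM in lactating against 17.7 and 19.0 CPM in pregnant luminal libraries, and 657 and 521 CPM in lactating against 119 and 177 CPM in pregnant basal libraries. Every basal library stood above every luminal one, and the interaction was -4.22 ± 0.28. Creb5, a transcription factor of the CREB and ATF family, had 3.13 and 2.50 CPM in lactating against 20.2 and 26.3 CPM in pregnant luminal libraries, and 70.8 and 71.5 CPM in lactating against 10.037 and 13.9 CPM in pregnant basal libraries. The cell type with the higher level thus changed with stage: luminal in pregnancy and basal in lactation. Its interaction, -5.62 ± 0.27, was the lowest among named genes with at least 10 CPM in a stage of each cell type.

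Krt19 and Krt8, keratins that mark luminal cells, moved apart in the same manner. Krt19 (chromosome 11, 100140810 to 100145926) had 574 and 556 CPM in lactating against 1285 and 1378 CPM in pregnant luminal libraries. It had 449 and 449 CPM in lactating against 79.1 and 103 CPM in pregnant basal libraries, a 4.93-fold rise. Its TMM-scaled level in basal libraries was below that in luminal libraries at both stages, though above it in lactation as a share of unscaled reads, and its interaction was -3.54 ± 0.22. Krt8 fell to 1026 and 702 CPM in lactating luminal cells, against 2650 and 3163 CPM in pregnant ones, and rose to 921 and 720 CPM in lactating basal cells, against 487 and 530 CPM in pregnant ones; the opposite call was lost without basal lactating replicate 1 or basal pregnant replicate 1. Krt18, the partner of Krt8 in the filament, fell by 1.77 on the log2 scale in luminal cells, with a basal change of -0.34 that did not pass the test; with the luminal share subtracted from the basal libraries, the basal change turned to 0.78 and was called (adjusted p = 0.016, edgeR). Of 12 luminal identity genes, 1 had a higher and 5 a lower interaction (median -0.36), while 9 fell in luminal cells.

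The same pattern was called for Vtcn1, an immune checkpoint ligand (-4.49), Arhgef28, a guanine nucleotide exchange factor (-4.78), Ppl, the periplakin of cell junctions (-4.63), Frmd6, an upstream member of the Hippo pathway (-3.84), Barx2, a homeobox factor (-3.66), and Fam102b (-3.00). Among 13 integrin and hemidesmosome genes, 7 had a lower interaction and none a higher one (median -0.85), with 6 lower in luminal and 8 higher in basal cells. Itga2, the collagen-binding integrin chain, fell to 0.688 and 0.455 CPM in lactating luminal libraries, against 11.3 and 7.59 CPM in pregnant ones, and rose to 53.4 and 50.3 CPM in lactating basal libraries, against 38.3 and 31.3 CPM in pregnant ones. Plec, Itgb4 and Itgb8 were also called in opposite directions; the 4 fell to 2 without basal lactating replicate 2 or basal pregnant replicate 1. Col17a1, the collagen of hemidesmosomes, and Itga1, another collagen-binding chain, rose in both cell types and had interactions of -0.14 and 0.25 that did not pass the test.

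All 13 milk protein genes had a higher interaction (median 2.22) and rose in luminal cells, and 4 of them were also called higher in basal libraries. Among these Csn1s2b, a casein, had a luminal change of 8.55 and a basal change of 6.09. Csn2, beta-casein, had 196870 and 189490 CPM in lactating against 44804 and 53657 CPM in pregnant luminal libraries, and a luminal change of 1.97. As a share of all reads in a library, without TMM scaling, its basal level was 1.03% of the luminal one in lactation and 2.86% in pregnancy, and its interaction was 2.26 ± 0.46. Reads of caseins and of other near-identical genes may have been divided between copies. Of 24 genes of fatty acid and triglyceride synthesis, 23 had a higher interaction (median 2.06) and rose in luminal cells, and 7 rose in basal cells. Fasn, fatty acid synthase, had 9227 and 10512 CPM in lactating against 1894 and 1716 CPM in pregnant luminal libraries, and 266 and 240 CPM in lactating against 294 and 228 CPM in pregnant basal libraries. The luminal pairs were far apart and the basal pairs overlapped, with an interaction of 2.50 ± 0.24. Scd2, a fatty acid desaturase, Slc25a1, the mitochondrial citrate exporter, and Acacb, an acetyl-CoA carboxylase, reached 3.80, 3.46 and 3.74. For these genes the basal share stood at 5.01% to 20.8% of the luminal share in lactation, above that of Csn2. Single milk protein genes reached 17.3% in lactating basal libraries, so the range overlaps theirs.

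Cholesterol synthesis differed from fatty acid synthesis in that both cell types rose: 22 of 24 genes rose in luminal and 19 in basal cells, with median changes of 1.77 and 1.03. Interactions were higher for 13 and lower for 1 (median 0.74), but scaling by library size made this 6 and 6 with a median of -0.06. Insig1, which holds the sterol sensor in the endoplasmic reticulum, had 448 and 513 CPM in lactating against 34.1 and 21.5 CPM in pregnant luminal libraries, and 52.6 and 45.5 CPM in lactating against 24.0 and 18.0 CPM in pregnant basal libraries. Both cell types rose, the luminal cells by more, with an interaction of 2.89 ± 0.29. Srebf2, the transcription factor that drives the pathway, was the lower one: it rose by 0.69 in basal cells with a luminal change of -0.13.

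Reads of luminal genes in basal libraries set a limit on all genes read almost only in luminal cells. The median share of the milk protein genes in basal libraries was 1.18% and 1.17% of their luminal share in lactation and 3.52% and 2.71% in pregnancy, so that a gene with no basal expression of its own would show a positive interaction. Whether these reads came from luminal cells in the sort or from free RNA was not tested. In the other direction the basal markers stood in luminal libraries at 0.110% and 0.0948% of their basal share in lactation and 0.212% and 0.228% in pregnancy. Of 13 tight junction genes, 8 had a higher and 2 a lower interaction (median 1.34), while 10 fell in luminal and 10 in basal cells. Cldn4, a claudin that seals the luminal layer, had 443 and 270 CPM in lactating against 2594 and 3770 CPM in pregnant luminal libraries, and 2.56 and 2.02 CPM in lactating against 99.6 and 83.9 CPM in pregnant basal libraries. Its basal share was 1.28% of the luminal share in lactation and 3.32% in pregnancy, within the range of the milk genes. With the luminal share subtracted from the basal libraries, no tight junction gene had a higher interaction and 3 had a lower one, and the milk protein genes had 7 higher. Csn2, Wap, Cldn4, Cldn7, Ocln, Prlr, Elf5 and Atf4 lost their call among named genes. The counts for cell cycle (27), oxidative phosphorylation (22) and ER genes (18) were as before. Over all genes, 5596 were called, 5506 of them among the 5787. A basal share at or under the highest library median at both stages, 1.18% and 3.52%, was found in 25 of the higher and none of the lower genes. Single milk protein genes reached 17.3% in lactating and 27.0% in pregnant basal libraries. Cldn4 lay above the cut in lactation and still lost its call, so the 25 are not all of the genes open to such reads. F11r and Tjp1, junction genes read in both cell types, were the 2 tight junction genes with a lower interaction. F11r fell by 0.66 in luminal and rose by 0.44 in basal cells.

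**Figure D3:**
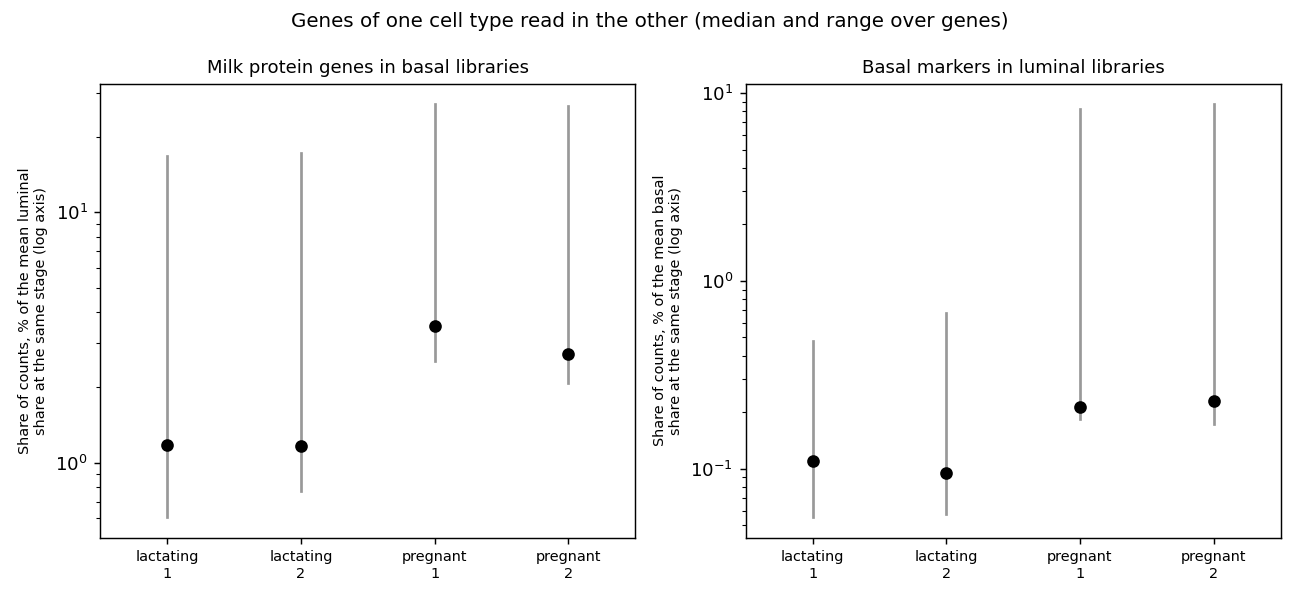
Share of reads of 13 milk protein genes in each basal library (left) and of 9 basal markers in each luminal library (right), as a percentage of the mean share in the other cell type at the same stage, on log axes; points are medians over genes and bars run from the lowest to the highest gene. The medians are lower in lactating than in pregnant libraries on both sides.

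Energy and secretion genes formed smaller but even differences. Of 25 nuclear genes of oxidative phosphorylation, 22 had a higher interaction and none a lower one (median 0.83): 22 rose in luminal cells, 17 fell in basal cells and 16 did both. This rests on the scaling: by library size 5 were higher and 3 lower, none of them rose and 19 fell in luminal cells, and none was opposite. Without basal lactating replicate 2 the opposite count was 6, and it was 9 without either basal pregnant replicate. Atp5o, a subunit of ATP synthase, had 159 and 155 CPM in lactating against 80.7 and 78.4 CPM in pregnant luminal libraries, and 30.4 and 27.1 CPM in lactating against 45.5 and 46.3 CPM in pregnant basal libraries. Exons of other genes cover 43.8% of its exon bases, so some of its reads may belong to them. Uqcrq, a subunit of complex III, had a luminal change of 0.91 and a basal change of -0.62. Of 20 genes of ER translocation and folding, 18 had a higher interaction (median 1.09), 15 rose and 1 fell in luminal cells and 10 fell and 1 rose in basal cells; by library size 5 were higher and 1 lower, and in luminal cells 2 rose and 7 fell. The opposite count of 6 was 3 without basal lactating replicate 2 or basal pregnant replicate 1, 4 without luminal pregnant replicate 2 or basal lactating replicate 1, and 11 with the replicate block. Ssr4, a subunit of the translocon-associated complex, had 529 and 516 CPM in lactating against 189 and 206 CPM in pregnant luminal libraries, and 37.7 and 37.3 CPM in lactating against 58.2 and 59.2 CPM in pregnant basal libraries. It was opposite under each scaling tried, with an interaction of 2.05 ± 0.14. Cytosolic ribosomal protein genes moved together instead: 21 of 24 fell in luminal and 22 in basal cells, with 2 interactions higher and 2 lower (median 0.05); by library size 20 were lower.

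**Figure D4:**
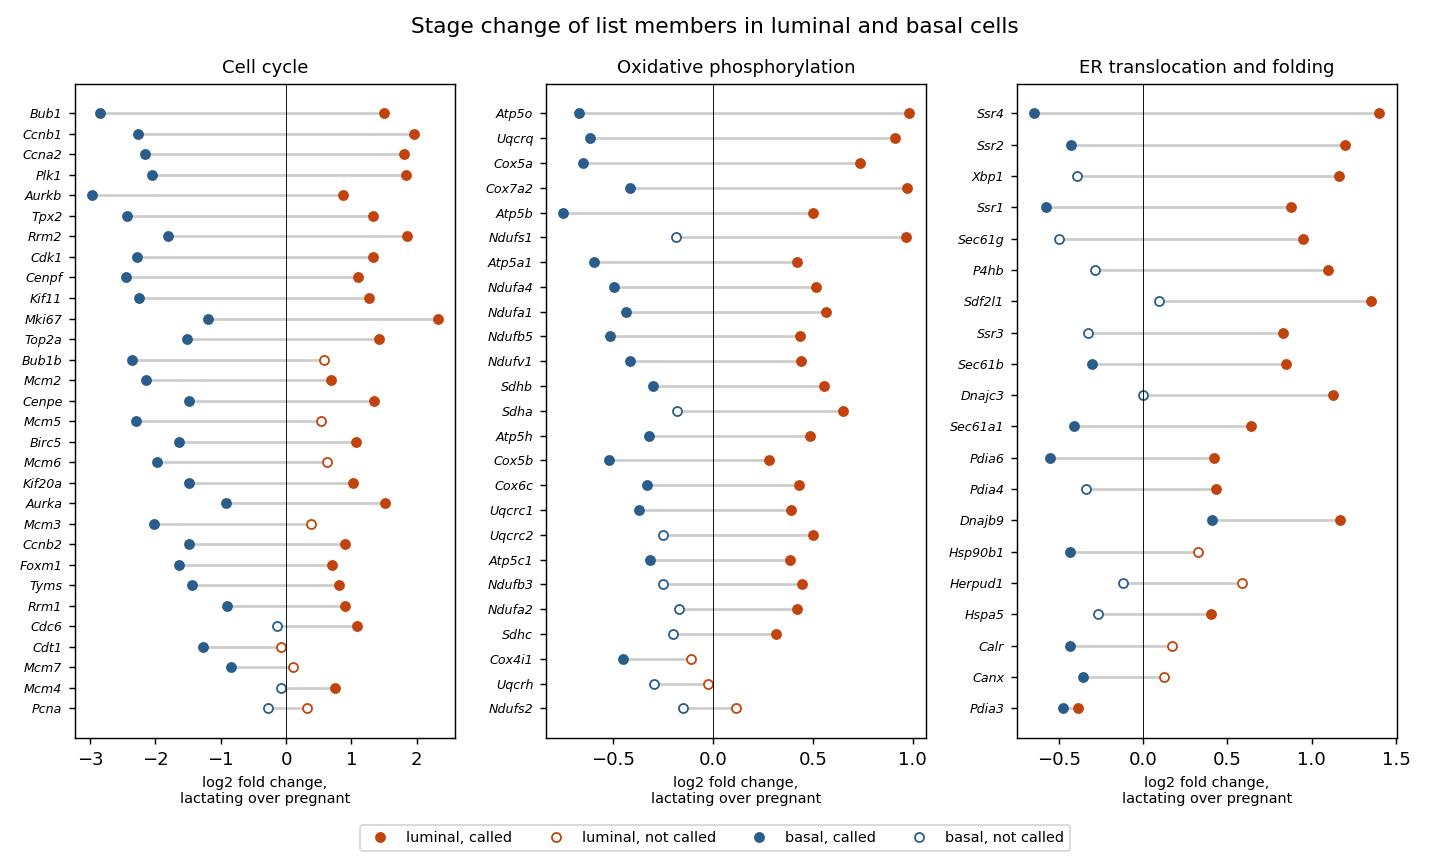
Log2 fold change of each list member, lactating over pregnant, in luminal (orange) and basal (blue) cells with TMM scaling; filled points passed an adjusted p of 0.05, and a grey line joins the 2 changes. Cell cycle genes lie farthest apart, and the positive luminal changes of oxidative phosphorylation genes became negative with scaling by library size (19 of 25 lower), as did some of the ER genes (7 of 20 lower).

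Among genes with at least 10 CPM in a stage of each cell type, the largest interactions included genes with few reads in pregnant luminal cells. Pcp4, Slc39a8 and Pthlh passed this level in luminal cells through lactation alone. Their low pregnant luminal level thus follows in part from how the genes were chosen. Pcp4, a calmodulin regulator, had 64.4 and 95.9 CPM in lactating luminal libraries against 0.179 and 0.0493 CPM in pregnant ones, and 10.043 and 10.3 CPM in lactating against 7.38 and 10.8 CPM in pregnant basal libraries. Exons of other genes cover 23.7% of its exon bases. Slc39a8, an importer of zinc and manganese, had 169 and 157 CPM in lactating against 1.21 and 2.42 CPM in pregnant luminal libraries, and 14.5 and 19.8 CPM in lactating against 13.4 and 14.2 CPM in pregnant basal libraries. Its interaction of 6.19 ± 0.32 (adjusted p = 3.5e-07, edgeR) came from the luminal cells, with a basal change of 0.32 that did not pass the test. Pthlh, which encodes the parathyroid hormone-related protein that moves maternal calcium, rose in both cell types: 27.4 and 39.9 CPM in lactating against 0.403 and 0.345 CPM in pregnant luminal libraries, and 30.4 and 44.6 CPM in lactating against 13.9 and 14.4 CPM in pregnant basal libraries. The cell types thus stood at similar levels in lactation only. Slc1a3, a glutamate transporter, Slco2a1, a prostaglandin transporter, and Thbd, thrombomodulin, rose in luminal and fell in basal cells, with interactions of 5.03, 4.33 and 4.86. The opposite call held in all 17 alternative fits for Slc1a3 and Slco2a1, and in 14 of them for Thbd. Gm3500 and Gm4070 (4.90 and 4.53) are predicted genes whose reads may be shared with near-identical copies.

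At the other end stood genes that luminal cells lost. Ccn2 and Rspo1 passed the level of 10 CPM in luminal cells through pregnancy alone. Ccn2, a matrix-associated growth factor often used as a readout of YAP activity, had 3.21 and 4.62 CPM in lactating against 385 and 611 CPM in pregnant luminal libraries, and 638 and 950 CPM in lactating against 3021 and 3358 CPM in pregnant basal libraries. It fell in both cell types, by 6.99 and 2.01 on the log2 scale, and the interaction was -4.98 ± 0.38. Exons of another gene cover 23.2% of its exon bases. Rspo1, a secreted enhancer of WNT signalling, had 3.82 and 3.56 CPM in lactating against 403 and 274 CPM in pregnant luminal libraries, and 6.77 and 6.30 CPM in lactating against 28.0 and 14.1 CPM in pregnant basal libraries. The interaction was -4.83 ± 0.47. Krt80, a keratin, had an interaction of -4.45.

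Among genes read at 10 CPM or more in 1 cell type only, Apod, a lipid-binding protein, rose by 7.06 in luminal cells and H19, an imprinted non-coding RNA, had 0.229 and 0 CPM in lactating against 7.70 and 12.8 CPM in pregnant luminal libraries, with 11.7 and 5.89 CPM in lactating against 1.22 and 0.824 CPM in pregnant basal libraries. H19 was called in opposite directions in every alternative run. Tnni2, a fast skeletal troponin, rose in basal cells to 99.1 and 66.4 CPM, against 0.959 and 2.14 CPM in pregnancy, with 0.197 to 0.303 CPM in the luminal libraries. Susd1 was at 0 in both lactating basal libraries, and Nipal4 and Pcyt1b were at 0 in both lactating luminal libraries, so no fold is given for them.

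The smooth muscle genes of the basal cells changed little. Of 15 contractile genes none had a higher and 4 a lower interaction (Lmod1, Srf, Smtn and Tpm1; median -0.58), and 2 rose in basal cells. Acta2, smooth muscle actin, had 19269 and 15416 CPM in lactating against 14460 and 17327 CPM in pregnant basal libraries, ranges that overlap, and an interaction of -0.58 ± 0.34 that did not pass the test (adjusted p = 0.1996, edgeR). Lmod1, a nucleator of actin filaments, rose in basal cells to 408 and 427 CPM, against 167 and 214 CPM in pregnancy. Of 12 genes of oxytocin and Gq signalling, 6 had a higher interaction and Oxtr alone a lower one (median 0.54). The higher ones were called for luminal rises, among them Orai1, the pore of the store-operated calcium channel, at 215 and 217 CPM in lactating against 72.9 and 78.3 CPM in pregnant luminal libraries, and 9.51 and 10.2 CPM in lactating against 10.6 and 8.65 CPM in pregnant basal libraries. Stim1, the calcium sensor that opens it, had an interaction of 1.42 and stood higher in basal than in luminal libraries at both stages.

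**Figure D5:**
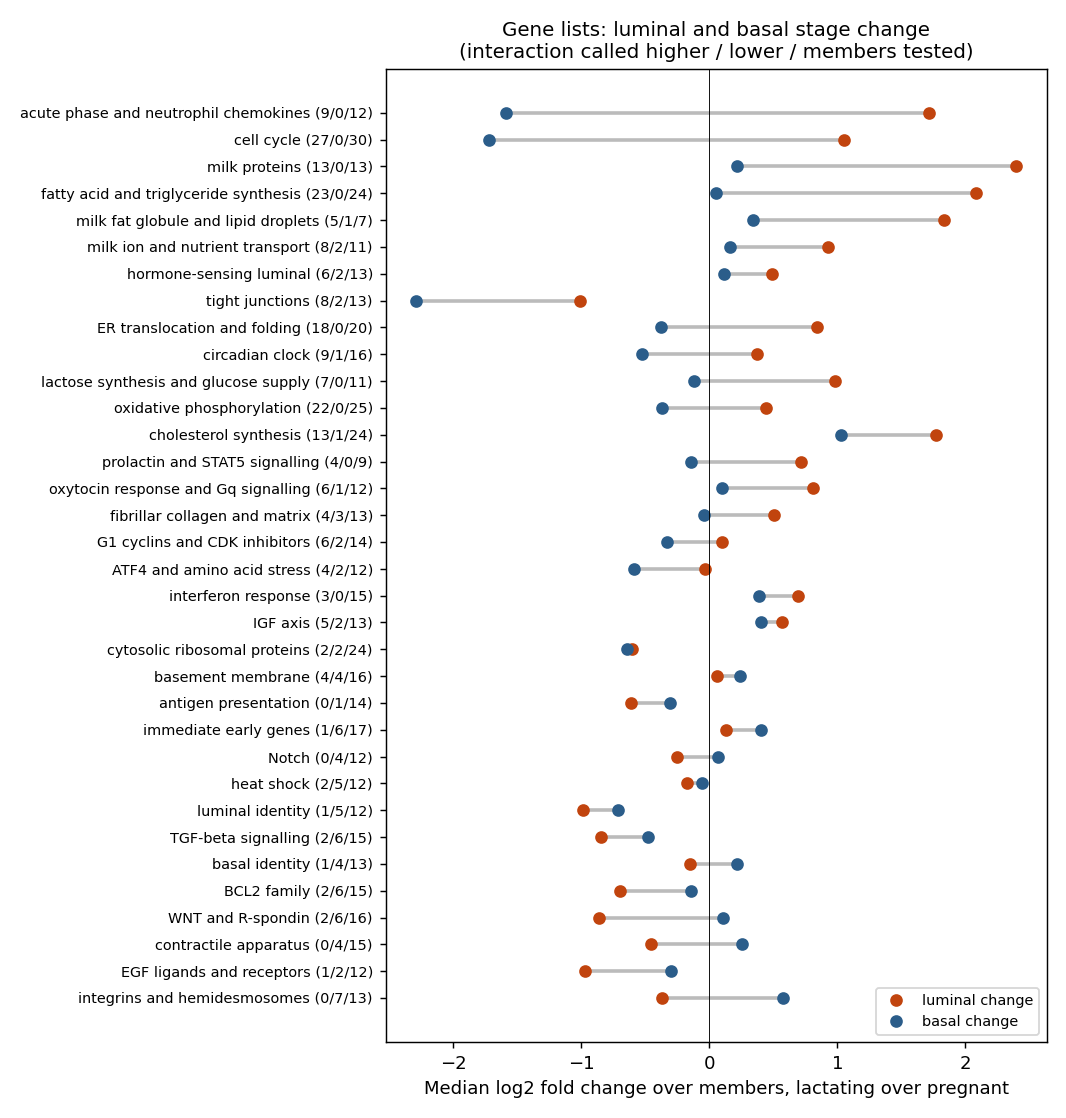
Median log2 fold change over the tested members of each of 34 gene lists, lactating over pregnant, in luminal (orange) and basal (blue) cells with TMM scaling, ordered by the median interaction, with the numbers of members whose interaction was called higher, called lower and tested. Acute phase and cell cycle genes have luminal medians above 0 and basal medians below 0, milk and fat lists have luminal medians well above basal ones, and integrin genes lie at the bottom; scaling by library size moves the luminal median of all genes by -0.85.

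Among survival genes, Mcl1, a BCL2 family protein that keeps cells alive, had 703 and 588 CPM in lactating against 994 and 1156 CPM in pregnant luminal libraries, and 564 and 571 CPM in lactating against 587 and 546 CPM in pregnant basal libraries. Its luminal fall of 0.74 on the log2 scale was called, its basal change was 0.00, and the interaction was -0.74 ± 0.18. Bcl2l1, which encodes BCL-XL, fell to 51.7 and 40.9 CPM in lactating luminal libraries, against 244 and 276 CPM in pregnant ones, and to 31.3 and 34.5 CPM in lactating basal libraries, against 54.2 and 46.0 CPM in pregnant ones. Bcl2l11, the pro-death protein BIM, fell in luminal and rose in basal cells, with an interaction of -2.08. Of 15 BCL2 family genes 2 were higher and 6 lower (median -0.48), beside 18.3% and 18.0% over all genes tested. Egf, the epidermal growth factor, had 81.4 and 81.1 CPM in lactating against 1.70 and 2.27 CPM in pregnant luminal libraries, and 1.17 and 1.10 CPM in lactating against 0.406 and 0.371 CPM in pregnant basal libraries. It was the only one of 12 EGF family genes with a higher interaction (3.83), while Egfr and Erbb2, receptor genes of this list, had lower ones (-1.38 and -0.99).

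Of 13 fibrillar collagen and matrix genes, 4 had a higher and 3 a lower interaction (median 0.49), beside 18.3% and 18.0% over all genes tested. Whether this split is particular to matrix genes was not tested. Col1a2, a chain of type I collagen, had 23.5 and 24.5 CPM in lactating against 14.7 and 9.86 CPM in pregnant luminal libraries, and 36.0 and 31.3 CPM in lactating against 48.9 and 64.9 CPM in pregnant basal libraries. All 10 fibroblast markers were measured, 7 with a higher interaction and none with a lower one. Their summed level was 120 and 132 CPM in lactating against 76.9 and 54.4 CPM in pregnant luminal libraries, and 634 and 534 CPM in lactating against 881 and 1099 CPM in pregnant basal libraries. The part of fibroblasts in the collagen changes was not tested. Col6a1, by contrast, rose in basal cells to 429 and 402 CPM, against 56.0 and 83.7 CPM in pregnancy, and its interaction was -1.55. Among 16 basement membrane genes, 4 were higher and 4 lower (median -0.12). Nid1, the linker protein nidogen, rose in luminal cells to 126 and 80.4 CPM, against 4.75 and 5.67 CPM in pregnancy, and reached the basal level of 97.3 and 77.8 CPM. In pregnant basal libraries Nid1 had 80.4 and 79.1 CPM. Hspg2, perlecan, fell in luminal and rose in basal cells, with an interaction of -1.65.

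Of 16 clock genes, 9 had a higher and 1 a lower interaction (median 1.03). Nr1d1, a repressor in the clock loop, had 96.6 and 71.9 CPM in lactating against 92.8 and 90.8 CPM in pregnant luminal libraries, and 38.1 and 33.5 CPM in lactating against 208 and 145 CPM in pregnant basal libraries. Its change was called in basal cells and not in luminal cells, though with scaling by library size a luminal change of -0.98 was called. Per2, another repressor of the loop, ran the other way, with a luminal fall of 1.21 on the log2 scale and a basal rise of 0.76. The library titles give no hour of collection, and its part in the clock gene changes was not tested. Of 13 hormone-sensing genes 6 were higher and 2 lower (median 1.55). Wnt4, a progesterone-induced ligand, fell in luminal and rose in basal cells, with an interaction of -2.13. Of 9 prolactin and STAT5 genes 4 were higher (median 0.64): Stat5a, which carries the prolactin signal, rose to 244 and 340 CPM in lactating against 188 and 167 CPM in pregnant luminal libraries, with 42.0 and 43.4 CPM in lactating against 50.4 and 43.8 CPM in pregnant basal libraries. Prlr and Elf5 were at 0.780% and 1.68% of the luminal share in lactating basal libraries, within the range of the milk genes.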

How the data were processed

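The authors deposited whole-number read counts per gene for 12 libraries, as 1 table and as 12 single files whose counts did not differ from it in any gene. Per the submitters' processing notes these were made with CASAVA 1.8.2, Subread 1.4.4 and featureCounts on GRCm38 (mm10); whether strand was used is not given in the sources used here. Genes were kept by filterByExpr (minimum count 10), libraries were scaled by TMM, and 6 group means were fitted to all 12 libraries with edgeR 4.0.16 (R 4.3.3) using its quasi-likelihood test, Benjamini-Hochberg adjustment and a threshold of 0.05. The step was tested on simulated data that lacked the rise of milk reads in lactation. The simulation also had no stage difference in luminal reads within basal libraries, so it does not bear on those limits. Deviations from the group mean were compared over 8500 genes between luminal and basal libraries of the same stage and number. Their r was 0.179 in lactation, 0.37 in pregnancy and 0.249 in virgin glands, against -0.279 to 0.169 for all other pairs of groups. Between stages the numbering, and so the sign of r, is arbitrary, and only the pregnant r exceeded these others in size. Pairing by number was thus an assumption made from 2 mice per stage, and a fit with the replicate block was an alternative. Replicates had r of 0.989 to 0.992 and were not duplicates.

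The interaction, the members and the 42 gene lists were chosen with earlier results of these data known. List counts are to be set beside the shares over all genes, 18.3% higher and 18.0% lower, and no list was tested. Genes were named by rule: those called with the same sign in every pairing of replicates and the highest or lowest interactions, the largest opposite changes, the highest and lowest called members of each list, and a fixed set. Mcm3, Mcm5, Mcm6, Pcna, Lcn2, Plec, Itgb4, Itga1, Col17a1, Tpm1, Smtn and the markers were named after their values were seen. Alternatives were scaling by library size, DESeq2 1.42.0 (size factors and test), milk genes left out, no filter on low counts, the 8 libraries alone, a threshold of 0.01, subtraction of the other cell type's share, and each library left out. Exon overlap was taken from GENCODE: in 8 of 149 named genes other genes cover over 20% of exon bases. A few genes are not reported here.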

Additional observations from a re-analysis of the deposited data

Results flagged for a closer look

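All results here were singled out because the stage change itself differed between luminal and basal cells by a test of that difference (the interaction, edgeR, adjusted p under 0.05). At the level of all genes these are the 2918 genes with a higher and the 2869 with a lower luminal than basal change, and within them the 552 genes up in luminal and down in basal cells and the 540 with the reverse pattern.

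Among the genes with the largest opposite changes, the interaction was positive for Cxcl2 (4.33), C4b (3.95), Kntc1 (3.86), Rrm2 (3.66), Lbp (3.45), Tcf19 (3.42), Rasd1 (3.36) and Top2a (2.94). It was negative for Creb5 (-5.62), Arhgef28 (-4.78), Vtcn1 (-4.49), Nfatc2 (-4.22), Frmd6 (-3.84), Barx2 (-3.66), Krt19 (-3.54) and Fam102b (-3.00). In each of these 16 genes the lactating libraries lay on one side of the pregnant ones in luminal cells and on the other side in basal cells, and each was called in opposite directions in all 17 fits. The genes were picked for their opposite changes in these same libraries, which the fits reuse. Neither the separation nor the repeated calls are therefore separate support. Barx2 in pregnant basal libraries stood at 5.75% of its luminal share, near the share of milk genes there; with that share subtracted its interaction was -4.74.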

How the results depend on the processing

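Scaling, the threshold and single libraries each moved counts by over 1.5 times. With scaling by library size alone there were 1012 genes higher and 7921 lower, 137 up in luminal and down in basal cells and 1168 the reverse; 3881 of the 5787 calls kept their sign and 42 were called with the other sign. The interactions of Hspe1, Rps2, Rpsa and Smad3 then turned to -0.039, -0.38, -0.24 and -0.28, none of them called. At an adjusted p under 0.01 there were 1925 higher, 1868 lower, 245 and 215 in opposite directions, and 2967 genes called in basal cells. Leaving out each library in turn gave 2372 to 2772 genes higher, 2092 to 2654 lower, 299 to 568 up in luminal and down in basal cells, 256 to 533 of the reverse pattern, 5901 to 7683 called in luminal cells and 2735 to 5424 called in basal cells. The replicate block gave 6483 calls, 5716 of them among the 5787, with 720 and 709 in opposite directions; among the genes named by rule and given here it changed no interaction call. DESeq2 called 5741 genes, and 7209 had an unadjusted p under 0.05 in edgeR. With 2 libraries per group, 20015386 to 24723827 reads, small interactions of genes with few reads could not be resolved.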

Other observations

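Hspb1, a small heat shock protein, had 14.1 and 11.3 CPM in lactating against 52.3 and 84.8 CPM in pregnant luminal libraries, and 573 and 571 CPM in lactating against 435 and 608 CPM in pregnant basal libraries. Only the luminal fall was called, and the interaction was -2.57. Of 12 heat shock genes 2 had a higher and 5 a lower interaction (median -0.33), beside 18.3% and 18.0% over all genes tested. Of 12 genes of the ATF4 and amino acid stress response 4 were higher and 2 lower (median 0.28). Ddit4, an inhibitor of mTOR signalling, had 90.3 and 104 CPM in lactating against 47.4 and 51.9 CPM in pregnant luminal libraries, and 48.8 and 61.2 CPM in lactating against 249 and 246 CPM in pregnant basal libraries. The pairs were apart in opposite order, with an interaction of 3.14; with scaling by library size it was no longer called in opposite directions. Psat1, an enzyme of serine synthesis, fell in basal cells alone (interaction 1.33).

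In lists of growth and fate signals, interactions were higher and lower for 2 and 6 of 15 TGF-beta genes (median -0.40), 2 and 6 of 16 WNT and R-spondin genes (-0.57), 0 and 4 of 12 Notch genes (-0.30), 1 and 6 of 17 immediate early genes (-0.19) and 1 and 4 of 13 basal identity genes (-0.47). Over all genes tested, 18.3% were higher and 18.0% lower. Lgr6, a receptor for R-spondins, had 1.99 and 2.35 CPM in lactating against 52.2 and 30.6 CPM in pregnant luminal libraries, and 95.9 and 100.2 CPM in lactating against 144 and 123 CPM in pregnant basal libraries. Its luminal fall alone was called. The IGF axis had 5 higher and 2 lower of 13 (median 0.14): Irs1, an adaptor of the insulin and IGF receptors, was higher (2.05) and the receptor gene Igf1r lower (-2.89). Exons of another gene cover 30.9% of the exon bases of Irs1.

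For the remaining lists the higher and lower counts were 7 and 0 of 11 for lactose synthesis and glucose supply (median 0.92), 8 and 2 of 11 for milk ion and nutrient transport (1.72), 5 and 1 of 7 for milk fat globules (2.03), 6 and 2 of 14 for G1 cyclins and inhibitors (0.28), 3 and 0 of 15 for interferon response (0.19) and 0 and 1 of 14 for antigen presentation (-0.18). The shares over all genes tested were 18.3% higher and 18.0% lower. Markers of other cells gave 1 and 0 of 11 for endothelial cells, 0 and 1 of 7 for pericytes, and 0 and 0 of 4 each for adipocytes and erythroid cells. The luminal markers gave 2 and 4 of 8, and the basal markers 0 and 3 of 9.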
